A study of Homo sapiens and Mus musculus with 10 samples.

Results

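The chemokine ligand and receptor genes described here are 65 of the 19970 protein-coding genes that GENCODE release 44 places on the human autosomes and the X chromosome. They were chosen by symbol alone: CCL, CXCL, XCL, CX3CL, CCR, CXCR, XCR, CX3CR or ACKR followed by a number, with an L suffix allowed, which gave 43 ligand and 22 receptor genes. Accessibility was measured by bulk ATAC-seq, in which the Tn5 transposase cuts and tags open DNA, in 4 established human cell lines with 2 libraries each. GM12878 is a B-lymphoblastoid line transformed with Epstein-Barr virus, HEK293T descends from embryonic kidney cells and expresses SV40 large T, HFF1 is a foreskin fibroblast line and K562 is an erythroleukaemia line. The labels name no treatment, time or sorting by marker in any group, so the groups differ in the line and in its culture medium, which was RPMI-1640 for K562 and GM12878 and DMEM for HEK293T and HFF1. About 20000 nuclei went into each library. The replicate labels do not say whether the 2 libraries of a line came from separate cultures, so the p-values below measure the spread between these libraries, which may be technical. The 2 mouse embryonic stem cell libraries of the series were not used here.

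Chemokines are small secreted proteins that guide migrating cells along a gradient. They are named for the spacing of their first cysteines (CC, CXC, XC, CX3C) and signal through G protein-coupled receptors named for the ligand class they bind, while the atypical receptors (ACKR) bind and remove or transport chemokines without coupling to G proteins. Inflammatory chemokines are induced by NF-kappaB, AP-1 and interferon pathways and many are encoded in tight gene clusters, whereas homeostatic chemokines such as CXCL12 and CCL19 are made steadily and position lymphocytes and progenitors in tissues. Peak calls report open chromatin, not transcripts or protein. In a bulk library, a peak that is open in more cells and one that is more open per cell cannot be told apart.

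The promoters that carry the differences between lines are shown first. RefSeq's promoter table (GRCh38.p14) held 45 of the 65 members, and all 45 were identical to the hg38 sequence used for the peaks. Each line below gives the 200 bases before the RefSeq start site, read 5′ to 3′ on the gene's strand. Capitals mark matches on either strand to the NF-kappaB or IRF consensus and, on the gene's strand only, TATAAA within 50 bases of the start. They also mark the AP-1 motif, which was searched for as TGANTCA with N for any base. The GATA motif was searched for with the letters AGATAA and the RUNX motif with the letters TGTGGT. The motif of PU.1, a myeloid and B-cell factor, was GAGGAAGT, and the box bound by NF-Y was CCAAT. The first 3 had a peak over these bases in both GM12878 libraries and a promoter peak in no other line, the next 3 had the same in HFF1, and CXCL2 was open in every line except GM12878.
CCL3 (chr17:36090144-36090343, minus strand): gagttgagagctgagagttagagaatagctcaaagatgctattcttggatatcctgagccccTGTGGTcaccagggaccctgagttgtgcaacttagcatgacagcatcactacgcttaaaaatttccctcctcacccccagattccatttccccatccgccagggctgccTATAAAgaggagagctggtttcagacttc
CCL3L3 (chr17:36196759-36196958, minus strand): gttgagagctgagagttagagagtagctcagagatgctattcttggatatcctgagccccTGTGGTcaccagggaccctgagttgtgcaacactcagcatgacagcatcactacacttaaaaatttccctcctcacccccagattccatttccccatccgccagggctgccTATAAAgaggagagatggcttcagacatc
CCL22 (chr16:57358583-57358782, plus strand): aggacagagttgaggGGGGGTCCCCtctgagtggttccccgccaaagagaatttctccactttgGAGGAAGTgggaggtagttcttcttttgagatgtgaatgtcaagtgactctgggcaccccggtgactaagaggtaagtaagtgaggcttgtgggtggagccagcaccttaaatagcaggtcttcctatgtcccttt
CCL7 (chr17:34270021-34270220, plus strand): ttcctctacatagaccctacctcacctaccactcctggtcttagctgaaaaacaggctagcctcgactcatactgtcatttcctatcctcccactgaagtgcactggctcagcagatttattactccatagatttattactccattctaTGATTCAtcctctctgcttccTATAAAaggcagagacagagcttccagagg
CXCL10 (chr4:76023498-76023697, minus strand): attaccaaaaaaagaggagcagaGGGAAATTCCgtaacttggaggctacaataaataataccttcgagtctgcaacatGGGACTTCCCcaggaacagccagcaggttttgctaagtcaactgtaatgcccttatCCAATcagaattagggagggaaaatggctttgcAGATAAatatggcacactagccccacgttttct
CXCL5 (chr4:73998678-73998877, minus strand): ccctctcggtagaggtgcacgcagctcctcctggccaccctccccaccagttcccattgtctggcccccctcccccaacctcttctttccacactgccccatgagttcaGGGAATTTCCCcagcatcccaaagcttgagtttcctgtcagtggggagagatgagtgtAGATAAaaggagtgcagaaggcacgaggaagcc
CXCL2 (chr4:74099196-74099395, minus strand): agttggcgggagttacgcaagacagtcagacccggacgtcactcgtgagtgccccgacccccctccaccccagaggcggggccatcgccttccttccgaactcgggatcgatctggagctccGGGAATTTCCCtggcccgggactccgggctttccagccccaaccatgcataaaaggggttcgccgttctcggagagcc
CCL3 and CCL3L3 are near-identical copies on chromosome 17. Their RefSeq promoters matched at 278 of 306 aligned columns (90.8%), and both carried TATAAA 29 bases and a RUNX motif 138 and 140 bases before the start. CCL22 had an NF-kappaB match 185 bases and a PU.1 match 136 bases before its start. CXCL10 held 2 NF-kappaB matches, at 177 and 122 bases. CXCL5 and CXCL2 each held 1 palindromic NF-kappaB site that matched on both strands, 91 and 78 bases before the start, and CCL7 had an AP-1 match at 51 bases beside TATAAA at 30 bases. A match is a description of letters and not a measured binding site.

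The libraries held between 52137 and 127359 peaks on the autosomes and X. HEK293T was the shallowest, with a background level, recovered from the deposited fold and p of each peak, of 0.465 and 0.466 reads against 1.71 to 2.43 in the other 6 libraries, and its 2 libraries had the fewest peaks. Fewer peaks in HEK293T go together with fewer reads, whose part in the HEK293T values was not tested, so counts over all members are given beside those over all genes. Each of the 4 marker lists for the cell types of the lines had the most open promoters in the line of its label. Those lists were also open elsewhere. Of 8 B-lymphocyte genes, 8 were open in GM12878, 4 of them only there, and 3 to 4 in the other lines. Of 8 fibroblast genes, 8 were open in HFF1, 1 of them only there, 6 in K562 and 4 each in GM12878 and HEK293T. Of 8 embryonic kidney genes, 7 were open in HEK293T, PAX2 and LHX1 only there, 6 in HFF1, 5 in GM12878 and 4 in K562. Of 8 erythroid genes, 5 were open in K562, fewer than its fibroblast genes, and 2 in each other line. In K562 the promoters of KLF1, HBG1 and ALAS2 had no peak in both replicates, nor in any other line. Monocyte or macrophage markers were open for 3 of 7 genes in GM12878, 2 in HFF1, 1 in K562 and none in HEK293T. Of 7 T-lymphocyte genes, 3 were open in GM12878, 1 of them only there, 2 in K562 and 1 each in HEK293T and HFF1. Of 6 endothelial genes, 3 were open in HFF1, 1 of them only there, 2 in GM12878 and 1 each in HEK293T and K562.

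A promoter was called open in a line where a peak overlapped the 1 kb either side of any annotated start site in both replicates. By this rule 31 members were open in HFF1, 28 in GM12878, 15 in K562 and 10 in HEK293T. These are 47.7%, 43.1%, 23.1% and 15.4% of the 65, whereas 76.2%, 71.9%, 70.4% and 67.8% of all protein-coding genes were open in the same lines. The members' share was below that of all genes in each of the 4 lines, and the shares of the lines lay further apart. With lists cut to the 50000 highest peaks per library the counts were 15 in HFF1, 20 in GM12878, 13 in K562 and 10 in HEK293T, so the order of HFF1 and GM12878 turned. Promoter peaks found in 1 line alone were a larger part of the members. In GM12878, 12 members (18.5%) were open in both libraries and in no library of another line, against 1.4% of all genes, and in HFF1 7 members (10.8%) were, against 2.05%. In K562 no member was open in this way, against 1.12% of all genes, and none in HEK293T, against 0.336%. The members were chosen by symbol and many are neighbours, and these shares were not tested.

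**Figure D1:**
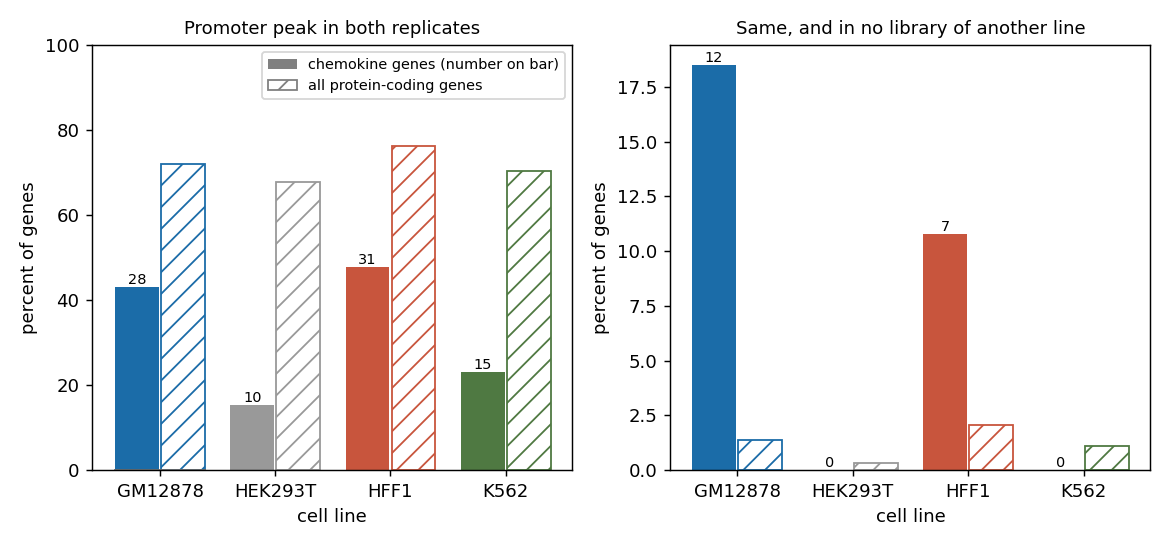
Percent of genes (y axis) with a promoter peak in both replicates of each line (left) and with such a peak in no library of any other line (right). Solid bars are the 65 chemokine genes with their number above, hatched bars are all 19970 protein-coding genes; the chemokine bars are lower on the left in every line, and higher on the right in GM12878 and HFF1.

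The members fall into the following sets. Counting lines with a peak in both replicates, 23 members were open in 1 line (35.4%, against 7.62% of all genes), 13 in 2 (20%, against 6.85%), 5 in 3 (7.69%, against 8.76%) and 19 in none (29.2%, against 17.1%). Peaks in either replicate lay in exactly 1 line for 24 members (36.9%, against 6.92%). Open in all 4 lines were CXCL12, CXCR4, CCR7, ACKR2 and CCL27, 7.69% of members against 59.7% of all genes. Open in 3 lines were ACKR3 (not K562), CXCL16 (not HEK293T in both replicates) and CXCL1, CXCL2 and CXCL3 (not GM12878 in both replicates). Open in GM12878 and HFF1 were CCR1, CCL5, CX3CL1, CCL20, CCL28, CCR10 and CXCR5, in HFF1 and K562 CXCL8, CXCL11 and CCL26, in GM12878 and K562 CCL8, and in HEK293T and HFF1 CXCL14. The 12 members open only in GM12878 were CCL3, CCL4, CCL3L3, CCL4L2, CCL16, CCL17, CCL22, CCL25, XCL2, CCR6, CCR9 and CXCR3. The 7 open only in HFF1 were CCL2, CCL7, CCL11, CXCL5, CXCL10, CXCR2 and ACKR4. CXCL6 and CCR3 were open in HFF1, and ACKR1 and CCL24 in K562, with further peaks in single libraries of 1 or 2 other lines. A further 5 members had a promoter peak in 1 library only: XCL1 and CXCR1 in GM12878 replicate 1, CCR8 in GM12878 replicate 2, CX3CR1 in K562 replicate 2 and CCL21 in HFF1 replicate 2. The remaining 14 (21.5%, against 14.7% of all genes) had none in any of the 8 libraries: CCL1, CCL13, CCL14, CCL15, CCL18, CCL19, CCL23, CXCL9, CXCL13, CXCL17, CCR2, CCR4, CXCR6 and XCR1. Of the members with a peak in either replicate 6 of GM12878 (17.6%), 4 of HEK293T (28.6%), 3 of HFF1 (8.82%) and 5 of K562 (25.0%) had it in 1 replicate only, while the share over all genes was 3.42% to 5.21%.

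**Figure D2:**
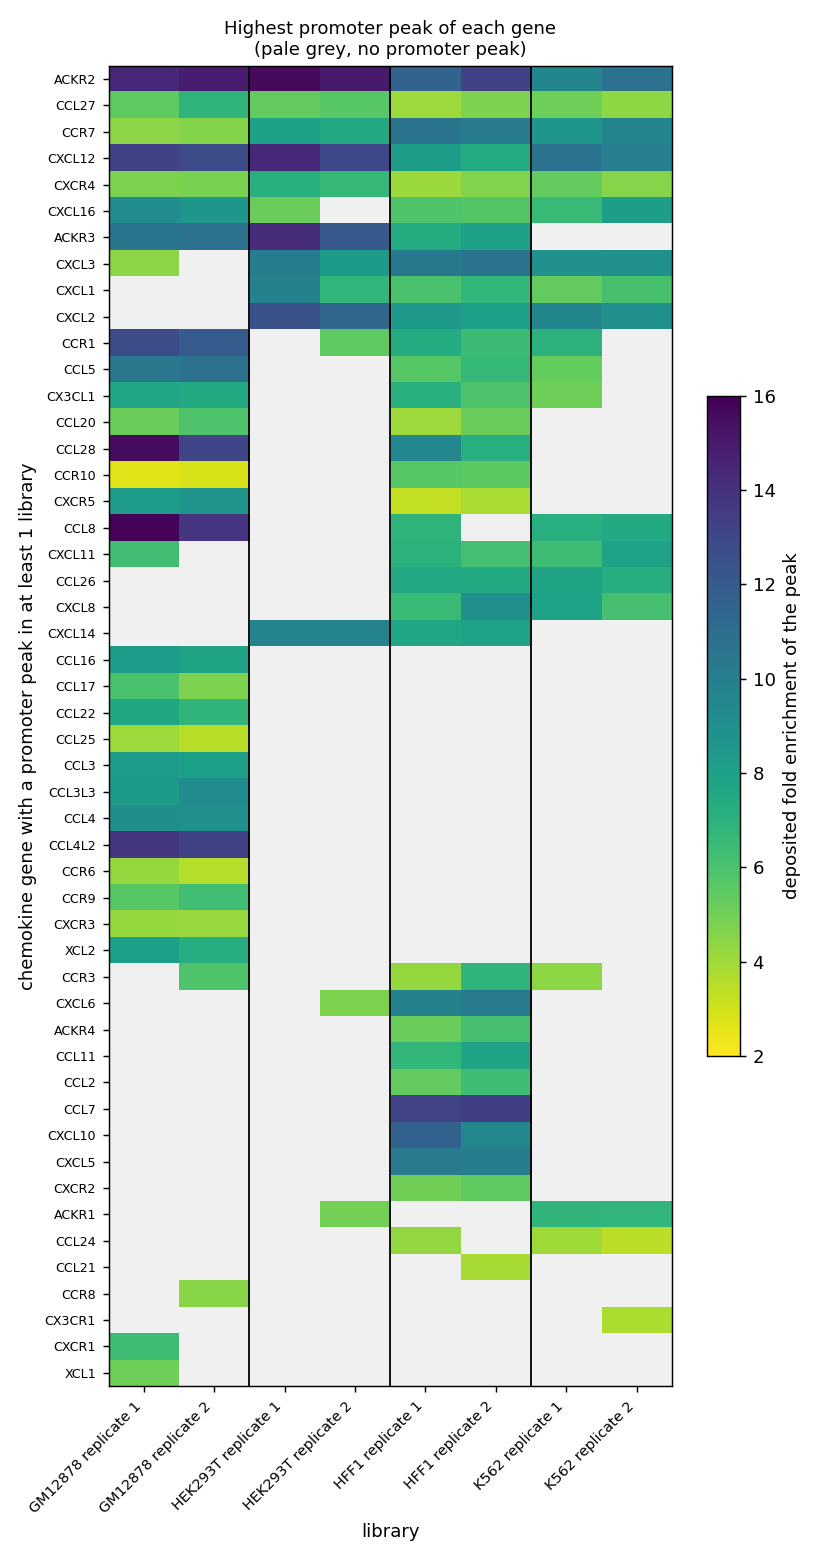
Authors' deposited fold enrichment of the highest promoter peak (colour, fold over local background) for 50 chemokine genes with at least 1 promoter peak (rows) in each library (columns). Pale grey means no promoter peak; the block of 12 genes with colour only in the GM12878 columns and the 7 with colour only in the HFF1 columns are seen in the middle and lower parts.

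Peaks around each gene, those at the promoter included, were summarised as the number of base pairs covered within 20 kb of any start site. The values therefore hold promoter and distal peaks together. For CXCL12 in GM12878 the 260 and 238 bp were its promoter peak alone. Each line was compared with the mean of the 3 other lines on log2(bp + 500) with limma, and p-values were adjusted over all 19117 genes with a nearby peak in at least 2 libraries. All 65 members passed that filter. In GM12878, 46 members were higher and 10 lower (adjusted p under 0.05), where 53.2% of all genes were higher and 13.2% lower. HFF1 had 42 higher and 11 lower (64.3% and 7.9% of all genes), K562 12 higher and 39 lower (28.8% and 25.3%) and HEK293T 0 higher and 62 lower (4.39% and 83.1%). At an unadjusted p under 0.05, HEK293T had 0 higher. The windows of 38 members overlap that of another member, so neighbouring values share peaks. The median member difference was 0.85 in GM12878 (all genes 0.27), 0.63 in HFF1 (0.40), -0.43 in K562 (0.03) and -1.01 in HEK293T (-0.70). Since all genes shifted by these amounts, the counts were repeated after each library was centred on its median. Then GM12878 had 37 higher and 13 lower, HFF1 28 and 21, K562 12 and 40 and HEK293T 8 and 30. For all genes, the centred shares were 28% higher and 31.5% lower in GM12878, 28.6% and 34.8% in HFF1, 30.7% and 26.4% in K562 and 34.3% and 27.8% in HEK293T. The sign of 19 members turned on centring in HEK293T, and 5 of them (CCL27, CXCL13, ACKR2, CXCL14 and CXCL2) passed the test in both directions, so single HEK293T genes are named below only where the sign held. Centred, 56.9% of members were higher in GM12878 and 61.5% lower in K562, both above the shares of all genes.

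**Figure D3:**
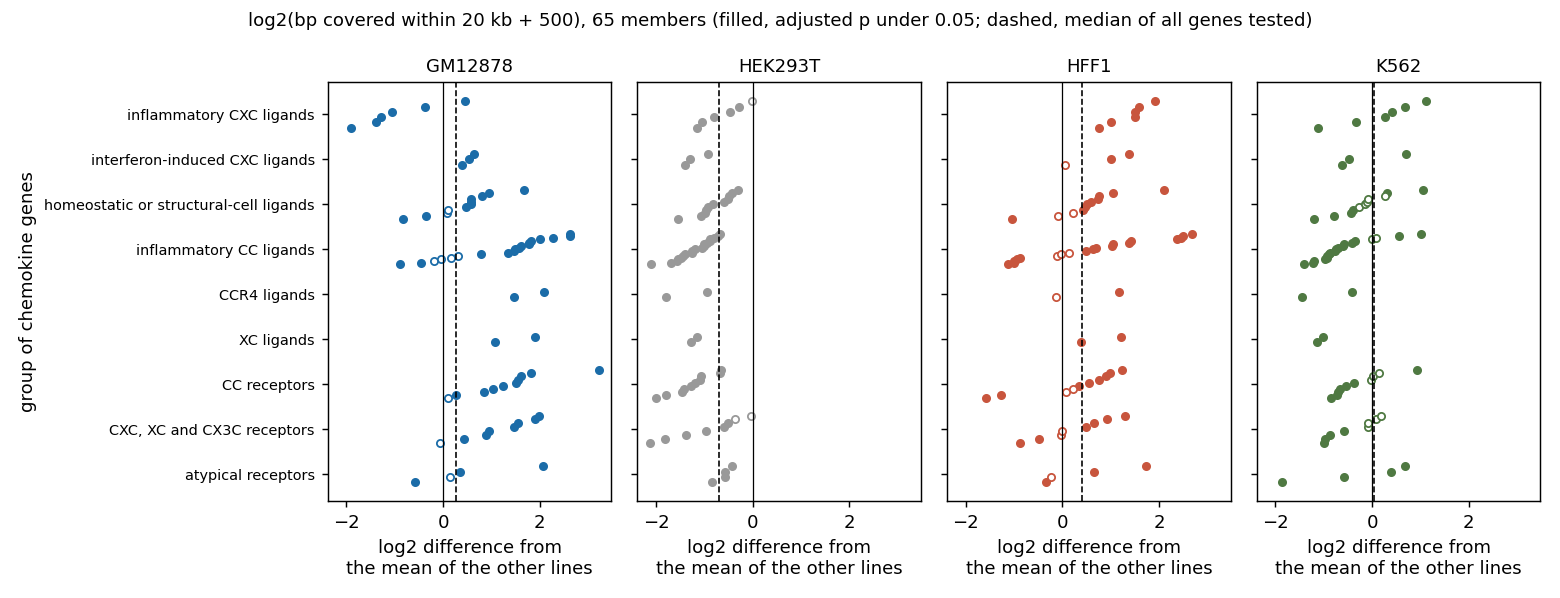
Difference in log2(bp covered within 20 kb + 500) between a line and the mean of the 3 others (x axis) for each of the 65 genes, by group (y axis). Filled points passed adjusted p under 0.05 (limma), and the dashed line is the median over all 19117 genes tested; 5 of the 6 inflammatory CXC ligands lie to the left of 0 in GM12878, CXCL8 being the exception, and all 6 to the right in HFF1.

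The inflammatory CXC ligands (CXCL1, CXCL2, CXCL3, CXCL5, CXCL6 and CXCL8), which attract neutrophils through CXCR1 and CXCR2, had open promoters in fibroblasts, and none was open in both GM12878 libraries. All 6 promoters were open in HFF1, 4 in K562, 3 in HEK293T and 0 in GM12878, beside 76.2%, 70.4%, 67.8% and 71.9% of all genes. In nearby cover all 6 were higher in HFF1 (5 after centring), beside 64.3% of all genes (28.6% centred). In GM12878, 5 of 6 were lower with or without centring, beside 13.2% (31.5% centred), CXCL8 being higher (0.46 uncentred). The medians were 1.5 in HFF1 and -1.17 in GM12878, where all genes had 0.40 and 0.27. CXCL8, the main human neutrophil attractant, had 1872 and 1753 bp covered in HFF1, 1231 and 1261 in GM12878, 740 and 586 in K562 and 203 and 315 in HEK293T. HFF1 lay above the other lines without overlap, by 1.00 ± 0.10 on the log2 scale (SE; limma, adjusted p = 3.69e-05). Its promoter peak, at chr4:73740372-73740853, was found in the HFF1 libraries (fold 6.51 and 8.96) and the K562 libraries (7.85 and 6.15). GM12878 had no CXCL8 promoter peak although it had 4 peaks within 20 kb in each library. The lowest fitted difference in GM12878 was that of CXCL2, which like CXCL6, CCL11 and ACKR4 had 0 bp in both libraries, against 731 and 618 in HEK293T, 2616 and 2295 in HFF1 and 1389 and 1479 in K562. The fitted difference was -1.91 ± 0.09 (limma, adjusted p = 2.53e-06) and, because GM12878 was at 0, its size depends on the added 500 bp. Its single promoter region, whose bases are printed above, had folds of 12.5 and 11.4 in HEK293T, 8.41 and 8.07 in HFF1 and 9.58 and 8.97 in K562. CXCL1 and CXCL3, whose promoters matched each other at 82.5% of aligned columns and CXCL2 at 74.0% and 74.3%, were also low in GM12878. CXCL1 had 2201 and 2189 bp in HFF1, 804 and 917 in K562, 308 and 244 in HEK293T and 196 and 167 in GM12878, and CXCL3 was highest in K562 (1694 and 1980 bp, +1.11 ± 0.17, adjusted p = 0.000813). CXCL5 differed in that only HFF1 had a promoter peak, with 1341 and 1571 bp nearby against 239 and 247 in GM12878, 362 and 427 in HEK293T and 0 and 0 in K562.

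The 3 interferon-induced CXC ligands, which bind CXCR3 on activated T cells, were mostly closed. CXCL9 had no promoter peak anywhere. CXCL10 was open only in HFF1, at fold 11.6 and 9.45, and had 1485 and 1511 bp of nearby cover there, 855 and 567 in GM12878, 194 and 343 in K562 and 0 and 0 in HEK293T. That HFF1 difference was 1.37 ± 0.12 (limma, adjusted p = 2.4e-05). CXCL11 was open in HFF1 and in K562 at different places: the HFF1 peak had its summit at base -100 from the start and the K562 peak at -973, and neither line had the other's peak.

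The inflammatory CC ligands attract monocytes, T cells and eosinophils, and they divided by gene between lymphoblastoid and fibroblast chromatin. Of the 19 annotated genes of this list, 8 promoters were open in GM12878, 6 in HFF1, 3 in K562 and 0 in HEK293T, beside 71.9%, 76.2%, 70.4% and 67.8% of all genes. Nearby cover was higher for 13 and lower for 2 in GM12878 (13 and 3 centred), beside 53.2% and 13.2% of all genes (28% and 31.5% centred). It was higher for 11 and lower for 5 in HFF1 (9 and 8 centred), beside 64.3% and 7.9% (28.6% and 34.8%). In K562 it was higher for 2 and lower for 15 (2 and 15 centred, 0 and 13 with libraries scaled to the lowest background), beside 28.8% and 25.3% (30.7% and 26.4% centred). CCL3 and CCL4, the macrophage inflammatory proteins, were the clearest GM12878 genes. CCL3 had 3606 and 3607 bp in GM12878, 227 and 150 in HEK293T, 0 and 173 in HFF1 and 231 and 216 in K562, a difference of 2.64 ± 0.13 (limma, adjusted p = 2.66e-06). CCL4 had 2584 and 2616 bp in GM12878 and no peak within 20 kb in any other library, and the fitted difference of 2.63 ± 0.09 (adjusted p = 9.8e-07) again depends on the added constant. The CCL3 promoter peak (chr17:36089686-36090803) had folds of 8.3 and 8.12 and the CCL4 peak (chr17:36103218-36104023) 9.01 and 8.96. Their copies CCL3L3 (8.38 and 9.19) and CCL4L2 (13.8 and 13.3) were also open only in GM12878, but reads from near-identical copies can be placed at either, so the 4 are not separate observations. CCL18, a neighbour of CCL3, was called higher in GM12878 (2.27 ± 0.13, adjusted p = 4.09e-06) without a promoter peak of its own in any library, and its 20 kb window overlaps those of CCL3 and CCL4.

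CCL2, CCL7, CCL8 and CCL11, which recruit monocytes and eosinophils through CCR2 and CCR3, were the fibroblast counterpart. CCL2 had 3479 and 3531 bp in HFF1, 926 and 725 in GM12878, 206 and 0 in K562 and 0 and 0 in HEK293T, and the HFF1 difference was 2.45 ± 0.14 (limma, adjusted p = 2.34e-06). CCL11, or eotaxin, had 2754 and 2672 bp in HFF1 and 0 in the 6 other libraries (2.68 ± 0.09, adjusted p = 4.64e-07). All peaks within 20 kb of CCL11 were thus HFF1 peaks. CCL7, whose promoter is printed above, had the highest fold of the 7 promoters open only in HFF1 (13.1 and 13.4). CCL8 had the next largest HFF1 difference after CCL11 (3608 and 3125 bp, 2.49 ± 0.13, adjusted p = 1.92e-06), yet its promoter was called open in GM12878 and K562, by a peak with its summit at base -746 (fold 15.9 and 13.9 in GM12878, 7.17 and 7.41 in K562), and in HFF1 replicate 1 only, by a different peak at -106 (6.88). CCL5, made by activated T cells, was shared: it had 2186 and 1992 bp in GM12878, 2017 and 2009 in HFF1, 334 and 0 in K562 and 0 and 0 in HEK293T, and the GM12878 and HFF1 ranges overlap. Both lines were above the mean of their 3 others (1.47 ± 0.17, adjusted p = 0.000125, and 1.42 ± 0.17, adjusted p = 0.000116; limma). CCL24 and CCL26, the other eotaxins on chromosome 7, had promoter peaks in both K562 libraries, CCL26 also in HFF1 (7.56 and 7.43), and no peak within 20 kb in HEK293T.

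CCL17 and CCL22, the ligands of CCR4, are neighbours on chromosome 16 with CX3CL1 between them. Both were open only in GM12878. CCL22 had 3346 and 3192 bp of cover in GM12878, 1908 and 1779 in HFF1, 224 and 0 in K562 and 0 in both HEK293T libraries, with GM12878 higher by 2.08 ± 0.14 (limma, adjusted p = 7.32e-06). It had 2 GM12878 promoter peaks, at base -965 (folds of 7.59 and 6.82) and at -72 (5.84 and 5.95). The peak at -72 lies over the printed bases. CCL17 had 2802 and 2584 bp in GM12878, 477 and 352 in HEK293T, 973 and 816 in HFF1 and 737 and 671 in K562 (1.47 ± 0.09, adjusted p = 6.87e-06). The promoter of their receptor, CCR4, had no peak in any library. XCL1 and XCL2, the XC ligands of activated T and natural killer cells, were both higher in GM12878, beside 53.2% of all genes. Both were also higher in HFF1, beside 64.3% of all genes. XCL1 had more cover in HFF1 (1222 and 1177 bp) than in GM12878 (1075 and 1107), with differences of 1.21 and 1.08. XCL2 had more in GM12878 (2145 and 2084 bp) than in HFF1 (838 and 534), with differences of 1.91 and 0.38. Only XCL2 had an open promoter, in GM12878 alone, with folds of 8.09 and 7.26 and summits 846 and 816 bases inside the gene.

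**Figure D4:**
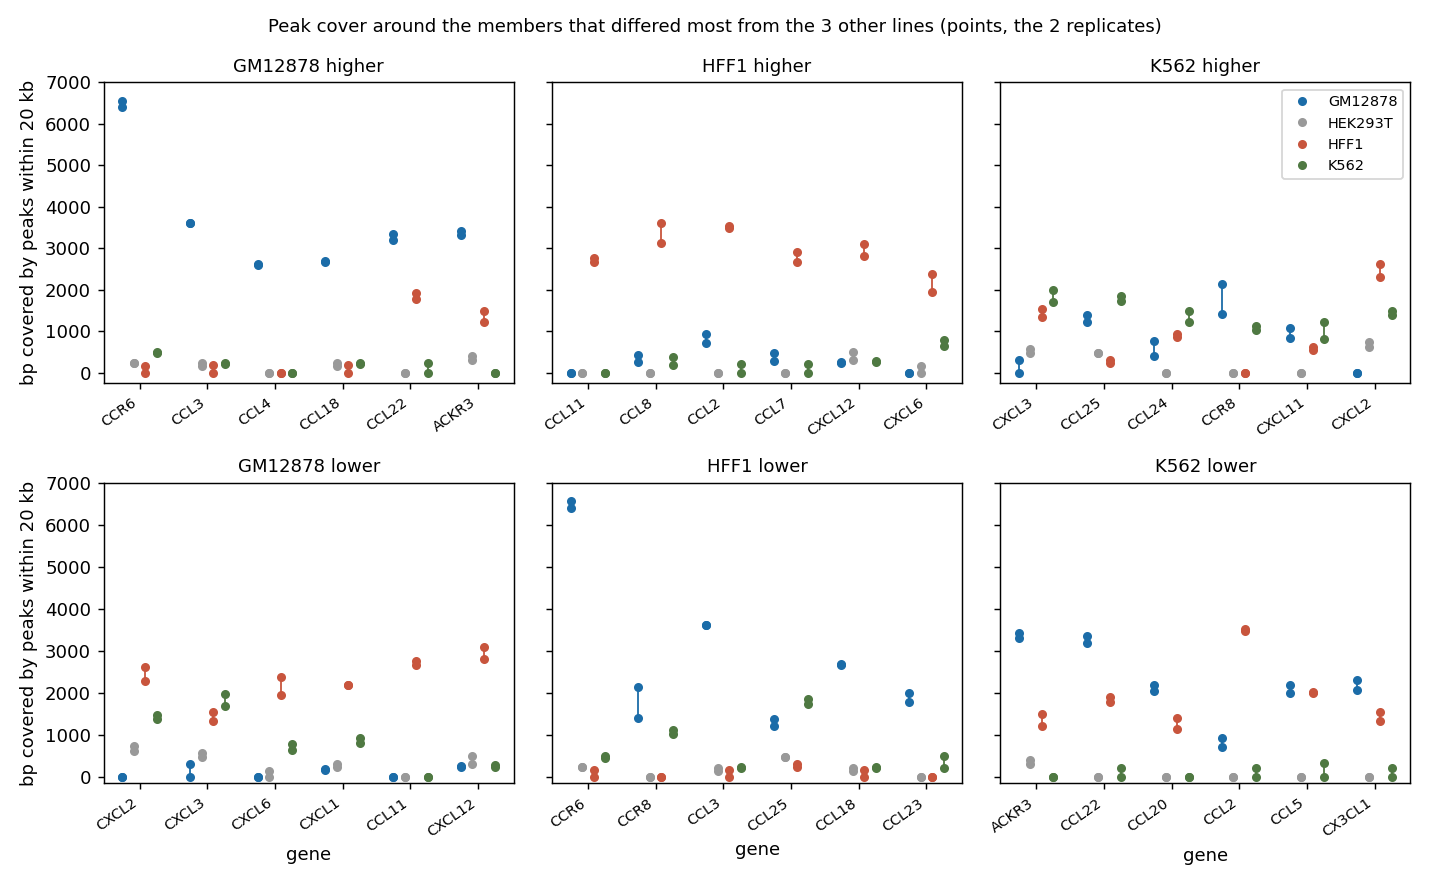
Base pairs covered by peaks within 20 kb of the start sites (y axis, linear) for the 6 genes with the largest passing differences in each direction in GM12878, HFF1 and K562. Points are the 2 replicates of each line, joined by a bar; CCR6 reaches 6560 and 6404 bp in GM12878 and CCL11 is above 0 in HFF1 alone.

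The homeostatic and structural-cell ligands were led by CXCL12, which retains stem cells and B-cell precursors in marrow through CXCR4. Its promoter was open in all 8 libraries through 1 peak (chr10:44386569-44386937) with summits between bases -252 and -207, and folds from 7.37 in HFF1 to 14.5 in HEK293T. That peak was shared by all lines and holds 1 match to a CTCF-type motif, whose part in the sharing was not tested. Among the other promoter regions open in all 4 lines, CXCR4 had 1 such match and CCR7, ACKR2 and CCL27 had 0. Capitals mark the CXCL12 match within its surroundings.
CXCL12 (chr10:44386711-44386762, minus strand): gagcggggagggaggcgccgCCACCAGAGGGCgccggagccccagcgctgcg
The rest of the locus was a fibroblast pattern. Cover within 20 kb was 3102 and 2802 bp in HFF1 but 260 and 238 in GM12878, 307 and 490 in HEK293T and 281 and 245 in K562, and HFF1 was higher by 2.11 ± 0.11 (limma, adjusted p = 1.58e-06). Of the 8 regions assigned to CXCL12, 5 were open only in HFF1 and 1 in all lines. Among the other genes of the list, CX3CL1 (fractalkine, a membrane-tethered ligand) had 2315 and 2065 bp in GM12878, 1541 and 1343 in HFF1, 224 and 0 in K562 and 0 in HEK293T. CCL25, the thymus and gut ligand of CCR9, had a promoter peak only in GM12878 (4.06 and 3.53), while K562, with 1853 and 1737 bp of nearby cover beside 1390 and 1217 in GM12878, 483 and 465 in HEK293T and 299 and 239 in HFF1, was above the mean of the others (1.05 ± 0.09, adjusted p = 4.01e-05). CXCL14 was open in HEK293T and HFF1, and the start site of SLC25A48 lies in the same window, as that of ZMYND15 does for CXCL16. Promoters of CCL19 and CXCL13, which organise lymph node zones, had no peak in any library, and that of CCL21 had 1, in HFF1 replicate 2. Of the 11 genes, 7 were higher and 2 lower in GM12878 (5 and 3 centred), beside 53.2% and 13.2% of all genes (28% and 31.5% centred). HFF1 had 8 higher and 1 lower (3 and 2 centred), beside 64.3% and 7.9% (28.6% and 34.8%). K562 had 2 higher and 4 lower (2 and 5 centred), beside 28.8% and 25.3% (30.7% and 26.4%). HEK293T had 11 lower, beside 83.1%, and centred 3 higher and 2 lower, beside 34.3% and 27.8%.

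Of the 22 receptor promoters, 11 were open in GM12878, 11 in HFF1, 4 in K562 and 4 in HEK293T, where 71.9%, 76.2%, 70.4% and 67.8% of all genes were open. The differences between lines in these receptor counts were not tested. Of the 10 CC receptors, 9 had higher nearby cover in GM12878 (8 centred, with 1 lower), beside 53.2% of all genes (28% centred). The median difference was 1.37 against 0.27 for all genes. In HFF1, 6 were higher and 2 lower, beside 64.3% and 7.9% of all genes. CCR3, CCR4 and CCR10 had more cover in HFF1 than in GM12878, and the others less. CCR6, the receptor for CCL20 on B cells and a subset of T cells, differed most of all members. It had 6560 and 6404 bp in GM12878, in 13 peaks per library, 237 and 240 in HEK293T, 168 and 0 in HFF1 and 503 and 464 in K562, a difference of 3.22 ± 0.12 (limma, adjusted p = 1.26e-06). Of its 14 regions, 12 were open only in GM12878, and the strongest of those, at chr6:167102965-167103780, had folds of 10.9 and 10.7, above the 4.24 and 3.54 of the promoter peak. CCR7, which brings B and T cells into lymph nodes, was open in all 8 libraries. Its GM12878 cover was 5466 and 5216 bp, against 2921 and 3373 in HFF1, 788 and 1407 in K562 and 416 and 206 in HEK293T (1.81 ± 0.16, adjusted p = 2.52e-05). The merged CCR7 region at chr17:40560196-40561478 held a peak in all 8 libraries, but its strongest peaks did not all overlap. That of GM12878 replicate 2 was at chr17:40560860-40561478, whereas those of HEK293T and HFF1 lay between bases 40560196 and 40560624. Folds in the region were 3.95 and 4.58 in GM12878 and 7.49 to 10.6 in the other lines. Another 2 promoter regions, at chr17:40561901-40562267 and chr17:40565079-40565854, were found only in GM12878. A fold is relative to the local background of its own library, so these values are not a comparison of openness between lines. CCR1, a receptor of CCL3 and CCL5 on monocytes and T cells, was open in GM12878 and HFF1. CCR9 was open only in GM12878 by a window it shares with LZTFL1, and CCR10 shares its window with CNTNAP1. CCR3 was open in HFF1 (4.23 and 6.86), and the promoters of CCR2 and CCR4 had no peak.

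Among the CXC, XC and CX3C receptors, 7 of 8 had higher cover in GM12878 (6 centred), beside 53.2% of all genes (28% centred). CXCR4, the receptor for CXCL12, had 3563 and 3586 bp in GM12878, 969 and 1000 in HEK293T, 298 and 665 in HFF1 and 616 and 237 in K562, and GM12878 was higher by 1.90 ± 0.18 (limma, adjusted p = 4e-05). Its merged promoter region (chr2:136116858-136118695) held a peak in all 8 libraries. Of the 6 regions assigned to CXCR4, 4 were open only in GM12878, including 1 with folds of 9.12 and 8.19 15084 bases from the nearest CXCR4 start site. CXCR5, which takes B cells into follicles, was open in GM12878 at its start (fold 8.31 and 8.73, summits at bases -28 and -34) and in HFF1 only at a different peak 665 bases after it (3.26 and 3.8). Its cover was 2967 and 2821 bp in GM12878, 1779 and 1462 in HFF1, 1068 and 819 in K562 and 0 in both HEK293T libraries (1.56 ± 0.10, adjusted p = 6.93e-06). CXCR3 was open only in GM12878, with 3236 and 2990 bp against 906 and 639 in HFF1, 308 and 247 in HEK293T and 260 and 289 in K562. CXCR2, the neutrophil receptor for CXCL1 to CXCL8, had its promoter peak only in HFF1 (5.05 and 5.42) and little cover in any line (0 to 372 bp).

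The 4 atypical receptors differed from each other. ACKR3, the scavenger of CXCL12, was open in GM12878, HEK293T and HFF1, with folds of 14.2 and 12.1 in HEK293T, and had no peak within 20 kb in K562. Its cover was 3311 and 3422 bp in GM12878, 1490 and 1226 in HFF1, 314 and 406 in HEK293T and 0 in K562, so GM12878 was higher (2.06 ± 0.10, adjusted p = 2.44e-06) and K562 lower (-1.87 ± 0.10, adjusted p = 4.41e-06; limma). ACKR1, the Duffy antigen carried by red cells and venular endothelium, had promoter peaks in both K562 libraries at 2 places (5.87 and 6.76, and 6.82 and 6.76), and a separate one in HEK293T replicate 2 (4.91). Its cover was 1820 and 1360 bp in K562, 1143 and 1009 in GM12878, 698 and 893 in HFF1 and 656 and 509 in HEK293T, and K562 was higher by 0.68 ± 0.12 (adjusted p = 0.00167). ACKR4, which scavenges CCL19, CCL21 and CCL25, had cover in HFF1 only (1198 and 1142 bp). ACKR2 was open in all 8 libraries, in a window that also holds the start of HIGD1A.

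In K562 the members with the largest passing gains were CXCL3, CCL25, CCL24, CCR8, CXCL11 and CXCL2, between 0.69 and 1.11, smaller than those of GM12878 and HFF1. CCL24 (1477 and 1210 bp in K562 against 863 and 941 in HFF1, 392 and 768 in GM12878 and 0 in HEK293T) and CXCL11 lost the call when libraries were scaled to the lowest background, with values of -0.10 and -0.07. CXCL11 also lost it with the 50000 highest peaks per library (-0.03), with a 50 kb window (0.19) and without both HEK293T libraries (0.26), and CCR8 with a 10 kb window (0.07; limma, adjusted p = 0.607). The largest K562 losses, between -1.19 and -1.87, were ACKR3, CCL22, CCL20, CCL2, CCL5 and CX3CL1. In HEK293T, CXCR5, CCL26, CCR7, XCR1, CCL22 and CCR9 had the lowest values, from -2.12 to -1.79, and all 6 stayed lower after centring, between -1.37 and -1.03. Altogether 24 members (36.9%) had no peak within 20 kb in either HEK293T library, against 11.1% of all genes. In K562 this held for 7 (10.8%, against 9.67%), and in GM12878 and HFF1 for 4 each (6.15%, against 8.39% and 7.79%). These shares were not tested.

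Of the members, 46 lie in 11 clusters of genes under 250 kb apart, and neighbours were often open in the same line. The CXC cluster on chromosome 4, 399 kb with its flanks, held 35 and 34 peaks in HFF1, 17 and 17 in K562, 8 and 8 in HEK293T and 8 and 7 in GM12878. Over the genome GM12878 held 101704 and 103715 peaks and K562 78601 and 71241, so the order of these lines was the other way round here. On chromosome 17 the CCL2 to CCL1 cluster held 26 and 23 peaks in HFF1, 8 and 8 in GM12878, 4 and 3 in K562 and 1 and 1 in HEK293T. Further along chromosome 17, the CCL5 to CCL4L2 cluster had the most peaks in GM12878, with 34 and 36, followed by 16 and 18 in HFF1, 15 and 10 in K562 and 4 and 4 in HEK293T. The eotaxin pair on chromosome 7 had 10 and 7 in HFF1, 9 and 7 in K562, 5 and 7 in GM12878 and 0 in HEK293T.

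**Figure D5:**
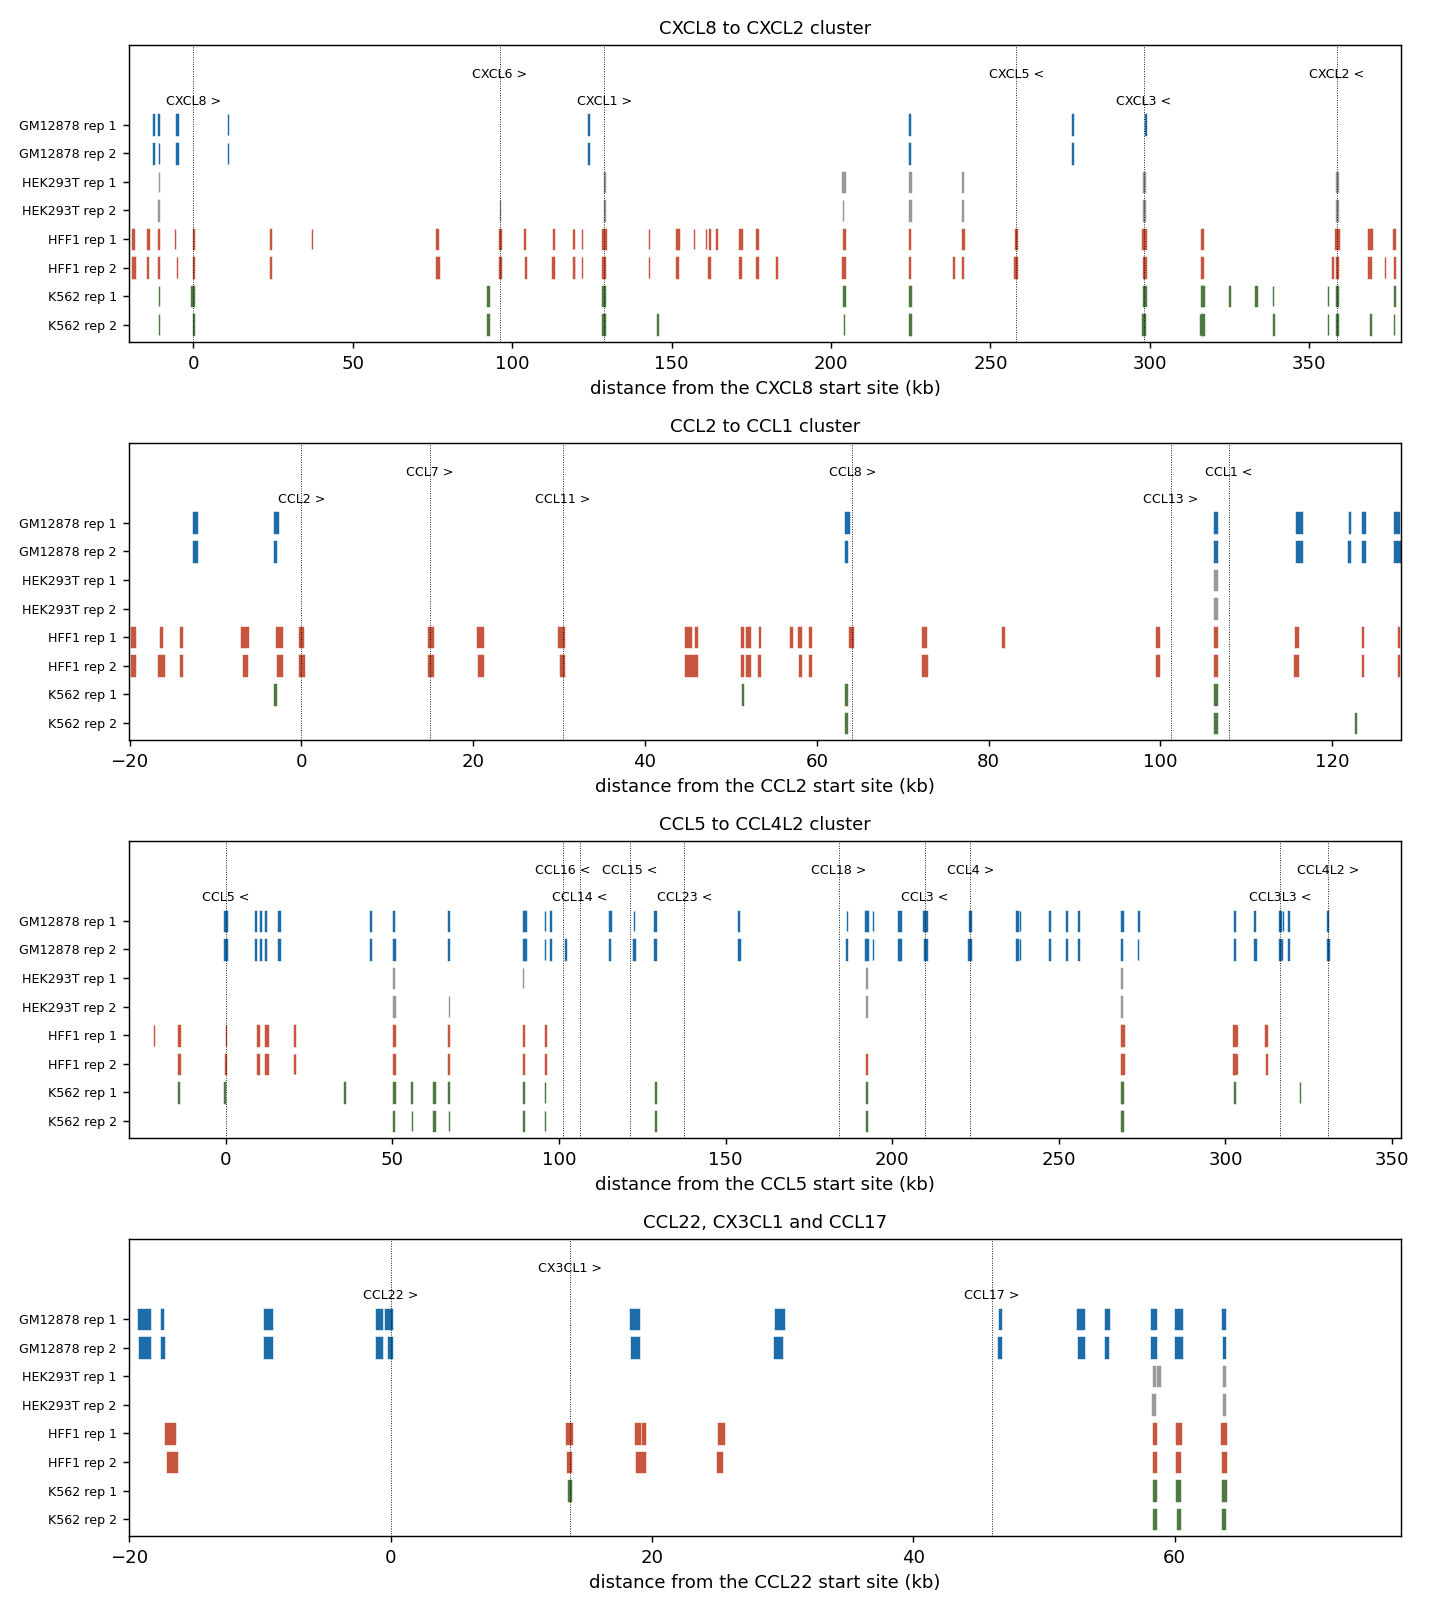
Peaks (coloured blocks) of each library (rows) across 4 clusters, by distance from the start site of the first gene (x axis, kb; dotted lines are start sites, > and < give the strand). HFF1 has the densest rows in the upper 2 panels and GM12878 in the lower 2.

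Peaks of the 8 libraries were merged into regions, of which 443 lay within 20 kb of a member. In both replicates of GM12878 and in no other library there were 115 (26% of the 443, against 14.3% of all 126106 regions near protein-coding genes), in HFF1 79 (17.8% against 18.5%), in K562 22 (4.97% against 6.31%) and in HEK293T 0 (against 1.01%). The GM12878 share was above that of all regions, and the other shares were at or below it. Regions open in all 4 lines numbered 38 (8.58%, against 13%), those in 3 lines 24 (5.42%, against 6.66%) and those in 2 lines 51 (11.5%, against 10.4%). HEK293T had 56 of the regions in both replicates (12.6%, against 19.9%). Most lay away from the start sites of members. Of the regions open in both replicates of a line, 16.2% in GM12878, 20.4% in HFF1, 15.8% in K562 and 19.6% in HEK293T were within 1 kb of one. Start sites of other genes were not counted, so some of the rest may be promoters of neighbours. The same shares over regions near all genes were not counted either, so this is not shown to be particular to the members. Letters at the region summits (201 bases) were compared with all regions of the same class. Of the GM12878-only regions near members, 16 of 115 (13.9%) held the NF-kappaB consensus, against 8.16% of all GM12878-only regions, and of the HFF1-only ones 10 of 79 (12.7%), against 4.76%. NF-kappaB was also in 3 of 38 regions open in all 4 lines (7.89%, against 4.33%) and 0 of 22 K562-only ones (against 2.12%). AP-1 was in 25.3% of HFF1-only regions near members and 30.5% of all, and GATA in 8 of 22 K562-only regions (36.4%) and 31.6% of all. Those K562-only regions held PU.1 in 4 (18.2%, against 2.44%) and RUNX in 1 (4.55%, against 17.1%). Regions open in all 4 lines held RUNX in 9 of 38 (23.7%, against 8.39%), GATA in 4 (10.5%, against 3.12%) and AP-1 in 0 (against 4.40%). The CTCF motif was in 11 of 38 regions open in all 4 lines (28.9%, against 12.7%) in 0 of the 115 GM12878-only regions (against 1.86%), 0 of the 79 HFF1-only (against 1.22%) and 1 of the 22 K562-only (4.55%, against 2.16%). These shares were not tested.

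Promoter sequence was set beside that of all genes. Over the bases of the RefSeq table, which run from 250 before to 50 after the start, the 45 matched members had a median CpG observed/expected ratio of 0.201, against 0.768 for all 15315 promoters of the table. A ratio of at least 0.6 was found in 6 (13.3%, against 66.5%): CXCR4, CXCL1, CXCL2, CXCL3, CXCL12 and CXCL14, each of which was open in 2 or more lines. The median was 0.177 for the 15 members open in no line, 0.194 for the 15 open in 1 line, 0.195 for the 9 open in 2 and 0.742 for the 6 open in 3 or 4. TATAAA within 50 bases before the start was found in 13 (28.9%, against 3.94%) and the NF-kappaB consensus in 10 (22.2%, against 6.37%). RUNX was in 14 (31.1%, against 10.9%), GATA in 10 (22.2%, against 7.44%), AP-1 in 8 (17.8%, against 5.75%), IRF in 4 (8.89%, against 3.18%), PU.1 in 3 (6.67%, against 2.51%), CTCF in 1 (2.22%, against 2.73%) and CCAAT in 17 (37.8%, against 36.6%). GC content differed as well, with a median of 50% for members and 63% for all, and its part in the motif shares was not tested. CCL27, open in all 8 libraries, had a ratio of 0.0469.

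Promoters of other genes of the pathway were counted in the same way. The list held 28 genes that carry the receptor signal (G protein subunits, receptor kinases, arrestins, RGS proteins, Rac regulators and phosphoinositide enzymes). Of these, 26 promoters were open in GM12878, 25 in K562, 24 in HFF1 and 19 in HEK293T, beside 71.9%, 70.4%, 76.2% and 67.8% of all genes. In all 8 libraries 17 of the 28 were open, a share close to the 59.7% of all genes. The HEK293T share was also close to that of all genes, and the shares of GM12878, K562 and HFF1 were above it. These shares were not tested. Nearby cover was higher for 21 and lower for 2 in GM12878 (17 and 5 centred), beside 53.2% and 13.2% of all genes (28% and 31.5% centred). HFF1 had 20 and 3 (9 and 9), beside 64.3% and 7.9% (28.6% and 34.8%). K562 had 9 and 8 (10 and 8), beside 28.8% and 25.3% (30.7% and 26.4%). HEK293T had 0 and 27 (4 and 18), beside 4.39% and 83.1% (34.3% and 27.8%). PIK3R5, a regulatory subunit of the PI3K that receptors activate, had the largest GM12878 difference of the list (2.71 ± 0.09; limma, adjusted p = 1.26e-06), and RGS1, a brake on chemokine receptors in B cells, was the gene open only there. GNAI1, an inhibitory G protein subunit, was higher in HFF1 (2.14 ± 0.14, adjusted p = 4.32e-06) and lower in GM12878 (-1.55 ± 0.14, adjusted p = 3e-05). A further 4 chemokine-related genes lie outside the symbol rule. PF4V1 and PF4, platelet chemokines of the chromosome 4 cluster, were open in both HFF1 libraries and PF4 also in HEK293T, PPBP had no promoter peak, and CCRL2 was open in GM12878 and K562, in 1 HFF1 library and in neither HEK293T library.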

How the data were processed

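Accessibility was measured by bulk ATAC-seq in 8 human libraries. Per the submitters' processing notes, reads were handled with cutadapt 3.2, Bowtie2 2.4.2, Picard and MACS2 2.2.7.1, with human reads on hg38. The authors deposited 1 peak list per library, with no pooled list, and per the file layout each peak has a fold ratio over local background, a −log10 p, a −log10 q and a display score. The whole-read pileup and background of each peak were solved from the deposited fold and −log10 p (every peak solved). The total read depth is not given in the sources used here, so the background level stands in for it.

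Peaks were matched to protein-coding start sites of GENCODE 44 (1 kb either side for promoters, 20 kb for nearby cover). Covered bp were tested on log2(bp + 500) with limma 3.58.1 (trend, robust; R 4.3.3), after a filter of a nearby peak in at least 2 libraries, with Benjamini-Hochberg adjustment over all genes. The fit was tested on simulated data. Promoter counts had no test. Members, lists and pairs were chosen with earlier results of these data known. A single member is counted in the totals but not reported here. The others are accounted for, a fixed set and, per line and direction, the 6 largest passing differences are given values, and the promoters shown come from members open in 1 line and from the largest differences. Alternatives were stricter q, equal list lengths, scaling to the lowest background, other windows and constants, centring, a replicate block and leaving out libraries. Leaving out HEK293T, and all alternatives of the counts of promoters open in 1 line, were chosen after seeing the data.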

Additional observations from a re-analysis of the deposited data

How the results depend on the processing

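Most counts stayed within 1.5 times of the reported ones. With the canonical start site alone, 6 promoters were open in HEK293T in place of 10. With the 50000 highest peaks per library, 15 were open in HFF1 in place of 31, and 1 member was higher in HEK293T in place of 0. The count of promoters open only in K562, 0 as reported, was 1 with a −log10 q of at least 5, 2 with equal list lengths, 1 when scaled to the lowest background and 1 without both HEK293T libraries. With a 10 kb window, 1 member was higher in HEK293T and 18 were lower in HFF1 (11 as reported). Centring on the library median gave 8 higher and 30 lower in HEK293T and 21 lower in HFF1. Without both HEK293T libraries, 20 were lower in HFF1 and 7 higher in K562 (12 as reported). The causes of these changes were not tested.

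Leaving out 1 library at a time gave 30 to 32 open promoters in GM12878, 11 to 13 in HEK293T, 32 to 33 in HFF1 and 16 to 19 in K562, since 1 replicate then decides. Nearby cover gave 41 to 47 higher and 8 to 10 lower in GM12878, 0 higher and 59 to 63 lower in HEK293T, 35 to 42 and 10 to 12 in HFF1, and 8 to 13 and 31 to 39 in K562. Single genes turned in 4 cases: CCL11 in GM12878 with a 50 kb window (0.13), CCL24 in K562 when scaled (-0.10), and CXCL11 in K562 with equal list lengths (-0.034) and when scaled (-0.066). The fit with the replicate block gave the same counts, 46 and 10 in GM12878, 0 and 62 in HEK293T, 42 and 11 in HFF1 and 12 and 39 in K562. Same-numbered libraries did not deviate together in covered bp (correlations of -0.02 to 0.02 over genes). These correlations cannot show whether same-numbered libraries were prepared together. HEK293T had the lowest background level, and the part of depth in its calls was not tested.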

Other observations

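Of 22 known ligand and receptor pairs, listed after the values had been seen, 8 had both promoters open in the same line. Of all protein-coding genes, 59.7% were open in all 4 lines, so sharing a line is common among genes in general. The share over pairs of other genes was not counted. CXCL12 and CXCR4 were open together in all 4 lines, and CXCL12 with ACKR3 in GM12878, HEK293T and HFF1. CCL20 with CCR6 and CCL25 with CCR9 were open together in GM12878. CCL27 and CCL28 with CCR10 were open in GM12878 and HFF1. CXCL8 with CXCR2 and CCL11 with CCR3 were open together in HFF1. For CCL17 and CCL22 with CCR4, and for CCL2 with CCR2, the ligand was open in 1 line and the receptor in none. For CXCR3, open in GM12878, CXCL10 was open in HFF1 and CXCL11 in HFF1 and K562, while CXCL9 was open in no line.

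Of the 23 members open in 2 or more lines, 20 had 1 region open in all of those lines. The peaks merged into a region need not all overlap, as for CCR7. CXCR5, CCL20 and CXCL11 were the exceptions, each with a different promoter region in each line. For CCL20 the GM12878 region was at base -22 and the HFF1 region at -547, with a peak in the latter also in GM12878 replicate 2.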
